A study of Rattus norvegicus with 6 samples.

Results

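The miR-199a/214 cluster is a pair of microRNA (miRNA) hairpins that are transcribed together. It was read here through 4 entries: rno-miR-199a-5p, rno-miR-199a-3p, rno-miR-214-3p and rno-miR-214-5p (the prefix, for rat, is left off below), where 5p and 3p are the products of the 5′ and 3′ arm of a hairpin. They were all entries named rno-miR-199a or rno-miR-214, with any arm suffix, and made up 4 of the 728 mature miRNAs listed. Small RNA had been sequenced from heart fibroblasts of newborn Wistar rats (postnatal day 1 to 2) and from exosomes, the small vesicles that such cells shed. The exosomes came from medium conditioned for 48 h with 1% exosome-depleted serum, after growth of the cells with 10% serum, by centrifugation, filtration and ultracentrifugation. The exosome group held the libraries numbered 1 and 2 and a library without a number in its column name, called the unnumbered library below, and the fibroblast group held libraries 1, 2 and 4. Both groups shared strain, age, tissue and culture, and the labels name no altered gene and no drug. The labels do not say that libraries of a group came from separate cultures, so each p-value measures only the spread between these libraries, which may be technical.

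Both hairpins lie in a long noncoding transcript, Dnm3os, that runs opposite to the dynamin gene Dnm3, and the transcription factor Twist1 is known to drive it in mesenchymal cells. The cluster is a classical feature of fibroblasts, smooth muscle and skeletal progenitors. In the heart, miR-199a-5p is known as a repressor of the hypoxia factor Hif1a, miR-199a-3p as a miRNA that promotes cardiomyocyte division, and miR-214-3p as a repressor of the sodium-calcium exchanger that limits calcium overload. A miRNA finds its targets mainly with its seed, bases 2 to 8 from its 5′ end.

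The mature sequences are shown because arm and seed decide which targets each entry can have; seeds are in capitals, and the sequences are those of RefSeq (build GRCr8, chromosome 13, plus strand), written 5′ to 3′.
miR-199a-5p: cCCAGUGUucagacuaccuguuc
miR-199a-3p: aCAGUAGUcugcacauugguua
miR-214-3p: aCAGCAGGcacagacaggcag
miR-214-5p: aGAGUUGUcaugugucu
The 4 entries had 4 distinct seeds. Of the 728 listed miRNAs 655 had a RefSeq sequence, and none of these shared bases 2 to 8 with an entry of the cluster. With bases 2 to 7 only, miR-6324 matched miR-199a-3p and miR-219a-1-3p matched miR-214-5p. Neither passed the test between exosomes and fibroblasts (log2 fold change -0.88, SE 0.64, and 0.68, SE 0.63, edgeR adjusted p = 0.33 and 0.45). miR-761, which had no mature sequence in the table, is known to belong to the seed family of miR-214-3p. It had 7, 9 and 1 counts in exosome libraries 1, 2 and unnumbered and 212, 1518 and 53 in fibroblast libraries 1, 2 and 4, with a log2 fold change of 0.22 (SE 0.67, edgeR adjusted p = 0.85).

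In GRCr8 the miR-199a arms lie at chr13:77116255-77116277 (5p) and chr13:77116294-77116315 (3p), and the miR-214 hairpin lies 5329 bases past the 3p arm, at chr13:77121645-77121752. All 4 entries fall within Dnm3, which runs on the minus strand. The submitters' notes name build rn5, for which no coordinates are given here. The miR-214 hairpin is shown with both annotated arms in capitals, since the 5p entry is unusually placed.
miR-214 hairpin: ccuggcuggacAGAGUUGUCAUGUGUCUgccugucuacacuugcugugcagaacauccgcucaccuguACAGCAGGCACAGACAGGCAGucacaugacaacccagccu
The 5p entry of RefSeq is 17 bases long and spans hairpin bases 12 to 28. In the fold predicted by RNAfold, 18 bases of miR-214-3p were paired, with partners between bases 27 and 47, and 2 of these partners lay in the 5p entry. The stretch opposite miR-214-3p was therefore mostly outside it. The deposited tables give names without sequences, so whether miR-214-5p counts are reads of this 17-base entry or of the stretch beside it is not known. Reads of any further genomic copy with the same mature sequence cannot be told apart here.

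Depth differed strongly between the groups. Total miRNA counts were 113129 to 120224 in exosomes and 2439559 to 12508651 in fibroblasts. A single miRNA, miR-873-3p, held 84.9% to 90.1% of exosome counts and 0.391% to 2.37% of fibroblast counts, which left 11825 to 18164 exosome counts for all others. Shares below are therefore given without miR-873-3p in the total unless stated. The unnumbered exosome library stood apart: it had counts for 576 miRNAs, against 677 and 673 in libraries 1 and 2, and a TMM scaling factor of 0.43 against 1.34 and 1.13. Other mesenchymal miRNAs, a list of 31 entries such as miR-143-3p and miR-21-5p, held 54.4% to 55.9% of all fibroblast counts and 0.696% to 1.60% of all exosome counts. Listed muscle miRNAs (14 entries) held 0.0254% to 0.0719% of fibroblast counts, endothelial ones (3 entries) 0.0106% to 0.0161%, blood ones (10 entries) 0.0282% to 0.0814% and epithelial ones (9 entries) 0.0188% to 0.0574%, and no entry of these lists was at 0 in all fibroblast libraries. In exosomes these lists held 0.0218% to 0.0957%, 0.0840% to 0.0973%, 0.0294% to 0.0681% and 0.0445% to 0.131% of all counts, and no entry was at 0 in all 3 libraries. Without miR-873-3p in the total the lists held more of the exosome counts: 0.220% to 0.633% for muscle, 0.644% to 0.973% for endothelium, 0.296% to 0.537% for blood and 0.448% to 0.870% for epithelium, each range above that of fibroblasts (at most 0.0722%, 0.0161%, 0.0817% and 0.0576%). The mesenchymal list then held 4.61% to 16.1% of exosome and 55.0% to 57.3% of fibroblast counts. With the counts outside miR-873-3p as library size, 377 of 698 miRNAs passed as higher in exosomes and 36 as lower (edgeR, below). A rise on this total was therefore not particular to these lists. With TMM scaling, 2 of 10 tested muscle and 1 of 2 endothelial entries passed as higher, and 1 muscle entry as lower. Of blood entries 1 of 10 passed as higher, and of epithelial entries 3 of 8. The part of the lists in the results below was not tested.

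The first question was how abundant each product was in the cells. miR-199a-3p was the main product in all 3 fibroblast libraries. It had 150058, 205830 and 48328 counts in fibroblast libraries 1, 2 and 4, or 2.38%, 1.65% and 2.03% of counts, and stood at rank 8, 11 and 10 among all miRNAs. miR-199a-5p had 23740, 22828 and 6877 counts, or 0.377%, 0.183% and 0.289%, at rank 30, 45 and 35. The 3p arm thus exceeded the 5p arm 6.32-fold, 9.02-fold and 7.03-fold.

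miR-214-3p followed, with 6068, 9335 and 2173 counts in fibroblast libraries 1, 2 and 4, which were 0.0964%, 0.0749% and 0.0912% of counts at rank 63, 85 and 67. It was steady against miR-199a-3p, which was 24.7, 22.0 and 22.2 times as abundant in the same libraries. miR-214-5p was the scarcest, with 642, 1113 and 31 counts, at rank 243, 438 and 530. Its share was 0.0102% and 0.00893% in fibroblast libraries 1 and 2 but 0.00130% in library 4 (95% Clopper-Pearson interval 0.000884 to 0.00185). After TMM scaling (below), its fibroblast levels spanned 6.49-fold, against 3.00-fold to 4.19-fold for the other 3 entries. These levels are read counts and were compared without a length correction. The RefSeq sequence of miR-214-5p has 17 bases, and those of the other 3 entries have 21 to 23. How evenly different miRNAs were captured was not tested. The order miR-199a-3p, miR-199a-5p, miR-214-3p, miR-214-5p was the same in the 3 fibroblast libraries, with no overlap between neighbours. Together the 4 entries made up 2.40% ± 0.474 (SD, n = 3) of fibroblast counts.

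In exosomes the cluster was represented by few reads. miR-199a-3p had 9, 9 and 78 counts in exosome libraries 1, 2 and unnumbered, or 0.0495%, 0.0628% and 0.660% of counts, at rank 343, 278 and 30. The unnumbered library held more of this miRNA than libraries 1 and 2 combined, and its 95% Clopper-Pearson interval of 0.522% to 0.823% lay above theirs (0.0227% to 0.0940% and 0.0287% to 0.119%). miR-199a-5p had 30, 11 and 7 counts, or 0.165%, 0.0767% and 0.0592%, with the highest value in library 1. All exosome shares of both miR-199a arms lay below all fibroblast shares. For miR-199a-5p, however, the 95% Clopper-Pearson interval of exosome library 1 (0.111% to 0.236%) covered the 0.183% of fibroblast library 2.

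miR-214-3p had 4, 3 and 5 exosome counts, or 0.0220%, 0.0209% and 0.0423%, below every fibroblast share. The Clopper-Pearson interval of the unnumbered library (0.0137% to 0.0986%), however, covered the fibroblast shares of 0.0749% to 0.0964%. Those of exosome libraries 1 and 2 ended below these shares, at 0.0564% and 0.0611%. miR-214-5p had 0, 1 and 1. The 0 of 120224 counts in library 1 allows a share of all counts of up to 0.00250%, which is above the 0.00127% found in fibroblast library 4. For miR-214-5p the groups overlapped. The order of the entries was not the same in the 3 exosome libraries: miR-199a-5p led in libraries 1 and 2 (in library 2 by 11 counts to 9, within counting error) and miR-199a-3p in the unnumbered library. Together the 4 entries held 0.237%, 0.167% and 0.770% of exosome counts, or 0.391% ± 0.329 (SD, n = 3). Without the unnumbered library the mean was 0.202%. With miR-873-3p in the total, the mean exosome share was 0.0445% ± 0.0286 and the mean fibroblast share 2.37% ± 0.460 (SD, n = 3 each). Intervals and floors describe counting error alone, because PCR copies molecules before they are read. A share also cannot tell fewer vesicles with a miRNA from fewer copies per vesicle.

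**Figure D1:**
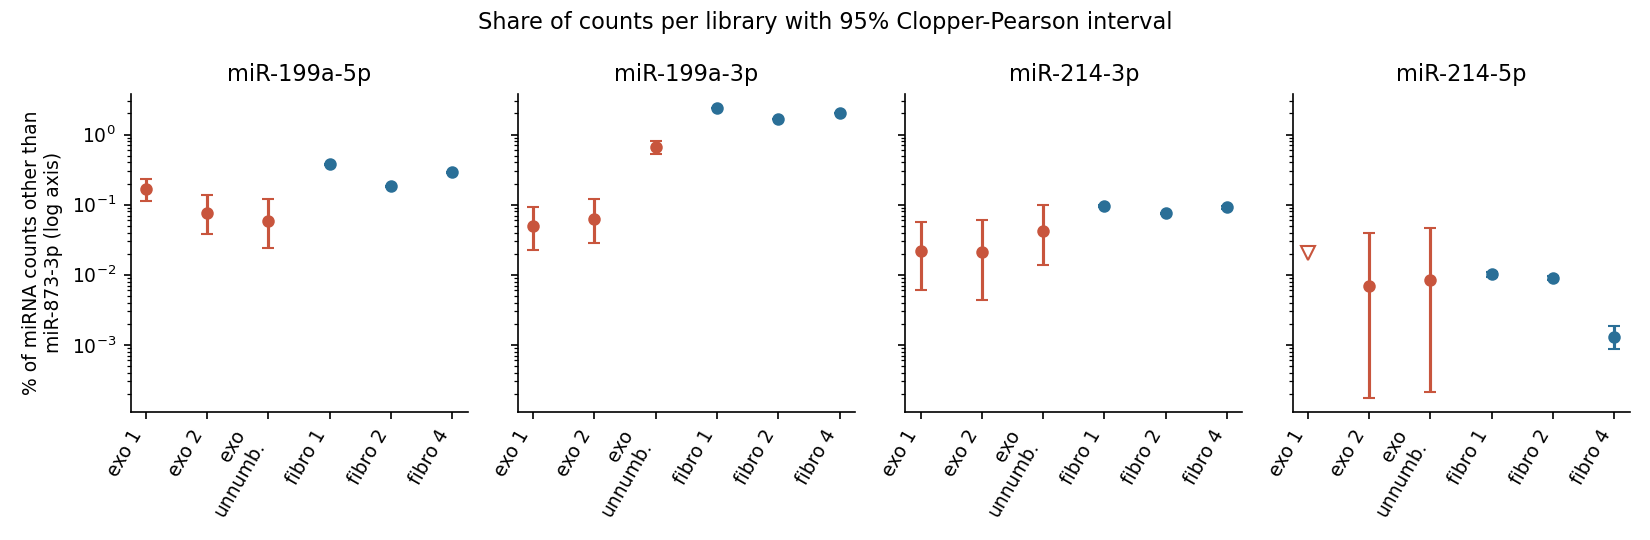
Share of miRNA counts other than miR-873-3p (percent, log axis) for each of the 4 entries in the 3 exosome libraries (red) and 3 fibroblast libraries (blue), with 95% Clopper-Pearson intervals; the open triangle is the upper limit for a count of 0. Exosome points lie below all fibroblast points for miR-199a-5p, miR-199a-3p and miR-214-3p, whereas miR-214-5p overlaps, with fibroblast library 4 at 0.00130%.

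A simple scale for these counts is what the exosome libraries would have held at the mean fibroblast share. For miR-199a-3p this came to 896 counts over the 3 exosome libraries, where 96 were found, 9.33 times fewer. The shortfall was 40.8-fold and 32.2-fold in libraries 1 and 2 and 3.06-fold in the unnumbered library, and 36.5-fold over libraries 1 and 2 together. For miR-199a-5p 125 counts would have been held and 48 were found, 2.61 times fewer. By library this shortfall was 1.71-fold, 3.69-fold and 4.78-fold in exosome libraries 1, 2 and unnumbered, and without library 1 it was 4.11-fold (18 counts against 74.0). For miR-214-3p 38.8 counts stood against 12, or 3.23 times fewer (3.97-fold, 4.18-fold and 2.07-fold by library). For miR-214-5p the number was 3.02, and the 2 counts found have an exact Poisson interval of 0.242 to 7.22. A difference in miR-214-5p was not detectable on this scale at this depth.

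The second question was whether the entries differed in relative abundance between exosomes and fibroblasts. All 4 were called lower in exosomes in a model fitted over the 698 miRNAs past a filter on low counts (quasi-likelihood test of edgeR, p-values adjusted by Benjamini-Hochberg over all 698, counts scaled by TMM, a factor per library that centres most miRNAs). miR-214-5p, with 2 exosome counts in all, passed that filter through its fibroblast counts. Its call therefore leans on the group in which it was high and adds no support to the other calls. miR-214-3p, with 12 exosome counts in all, reached the filter's minimum total of 15 counts only together with its fibroblast counts. The call of miR-214-3p leans on that group too. Of all tested miRNAs 18.6% were called lower (130) and 11.3% higher (79). Without exosome library 1 these numbers were 86 and 54, and without exosome library 2 they were 88 and 46, or 11.9% and 7.5%, and 12.2% and 6.35%, of 720 and 724 tested. Leaving out a fibroblast library left 359 to 414 miRNAs past the filter, and the share called lower rose to between 27.1% (without library 1) and 33.7% (without library 2, where 19.8% were higher). Fold changes are given relative to this scaling and, in TMM-scaled CPM (counts scaled to a library of common size), with the values of each library first.

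miR-199a-3p stood at 55.7, 70.5 and 1518 CPM in exosome libraries 1, 2 and unnumbered and at 24307, 8272 and 25000 CPM in fibroblast libraries 1, 2 and 4. The groups did not overlap, although the unnumbered exosome library was 27.2-fold above library 1. The mean fell from 19193 ± 9464 to 548 ± 840 CPM (SD, n = 3), a fitted 35.9-fold decrease (log2 fold change -5.17, SE 1.48, edgeR adjusted p = 0.0029). Without the unnumbered library the log2 fold change was -8.36, and without exosome library 1 the call was lost (log2 -4.63, edgeR adjusted p = 0.054); over all settings run the adjusted p lay between 1.2e-11 and 0.054.

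miR-199a-5p stood at 186, 86.2 and 136 CPM in exosomes and at 3846, 917 and 3557 CPM in fibroblasts. On this scale its exosome values were within 2.16-fold of each other, while its exosome shares were 0.165%, 0.0767% and 0.0592%. Its level was lower by a fitted 20.3-fold (log2 -4.34 with an SE of 1.04, edgeR adjusted p = 0.00034). The miR-214-3p arm stood at 24.8, 23.5 and 97.3 CPM in exosomes and at 983, 375 and 1124 CPM in fibroblasts, with no overlap. The fitted decrease was 20.1-fold (log2 -4.33 with an SE of 0.87, edgeR adjusted p = 2.3e-05), on 12 exosome counts. Without the unnumbered library its log2 fold change was -5.22 (edgeR adjusted p = 3.1e-05). miR-214-5p, with 0, 7.83 and 19.5 CPM in exosomes and 104, 44.7 and 16.0 CPM in fibroblasts, overlapped between the groups. Its fitted log2 fold change was -3.16 (SE 1.02, edgeR adjusted p = 0.0093), but it rests on 2 exosome counts. From those, the pooled exosome level was 9.35-fold below the fibroblast mean, with a counting interval of 2.59-fold to 77.2-fold. Without exosome library 1 it was not called (log2 -2.42, edgeR adjusted p = 0.12), and over all settings its adjusted p lay between 0.0011 and 0.77. Exosome values all below fibroblast values were found for 3 of the 4 entries and for 24.6% of all tested miRNAs.

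**Figure D2:**
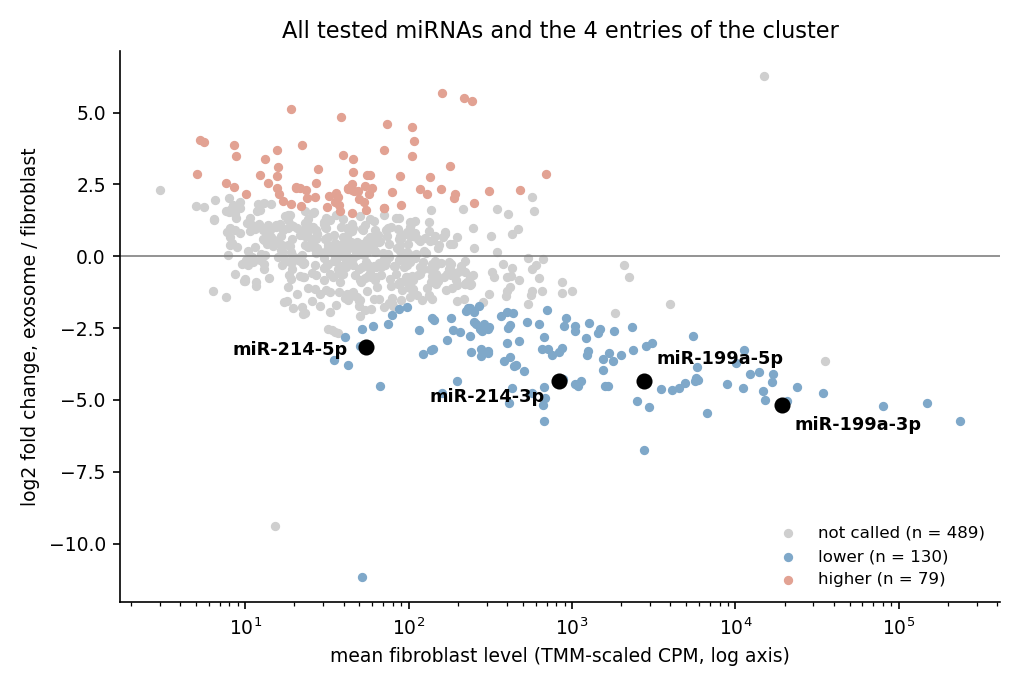
Log2 fold change, exosome over fibroblast, against the mean fibroblast level (TMM-scaled CPM, log axis) for 698 tested miRNAs; colours give the edgeR call and black points are the 4 entries of the cluster. The 4 entries lie among the miRNAs called lower, from miR-214-5p at -3.16 to miR-199a-3p at -5.17. The 2 lowest points had 0 counts in all exosome libraries, so their fitted values are no measure of size.

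Set in order of fold change, with the lowest first, miR-199a-3p was at place 10 of 698, miR-199a-5p at 36, miR-214-3p at 39 and miR-214-5p at 80. By fibroblast level they stood at place 8, 34, 69 and 371. Among the 100 most abundant fibroblast miRNAs, which include miR-199a-3p, miR-199a-5p and miR-214-3p, 76 were called lower and 2 higher, and their median log2 fold change was -3.42. A call of lower for those 3 entries is therefore what most miRNAs of that abundance received. The median over the 4 entries was -4.34, against -0.15 over all tested miRNAs.

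The size of the fold change depended on the scaling. With the counts outside miR-873-3p as library size, the median of all tested miRNAs moved to 2.37 and the calls to 377 higher and 36 lower. miR-199a-3p was then at -2.99 and still called, while miR-199a-5p (log2 -1.48, edgeR adjusted p = 0.056), miR-214-3p (-1.65, 0.065) and miR-214-5p (-0.54, 0.77) were not. Over all settings run, the adjusted p lay between 1.3e-08 and 0.056 for miR-199a-5p and between 9.8e-09 and 0.065 for miR-214-3p. Total counts gave 43 higher and 121 lower, and library sizes that include reads outside the listed miRNAs gave 37 and 196, with medians of -0.57 and -0.95. A change of library size shifts all miRNAs of a library alike, so positions measured from the median of all tested miRNAs could change little. From that median, under TMM and with the counts outside miR-873-3p, miR-199a-3p was at -5.02 and -5.36 and miR-199a-5p at -4.19 and -3.84. In the same order miR-214-3p was at -4.18 and -4.02 and miR-214-5p at -3.01 and -2.90. A left-out library can move this position: without the unnumbered exosome library miR-199a-3p was at -8.17 from the median.

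**Figure D3:**
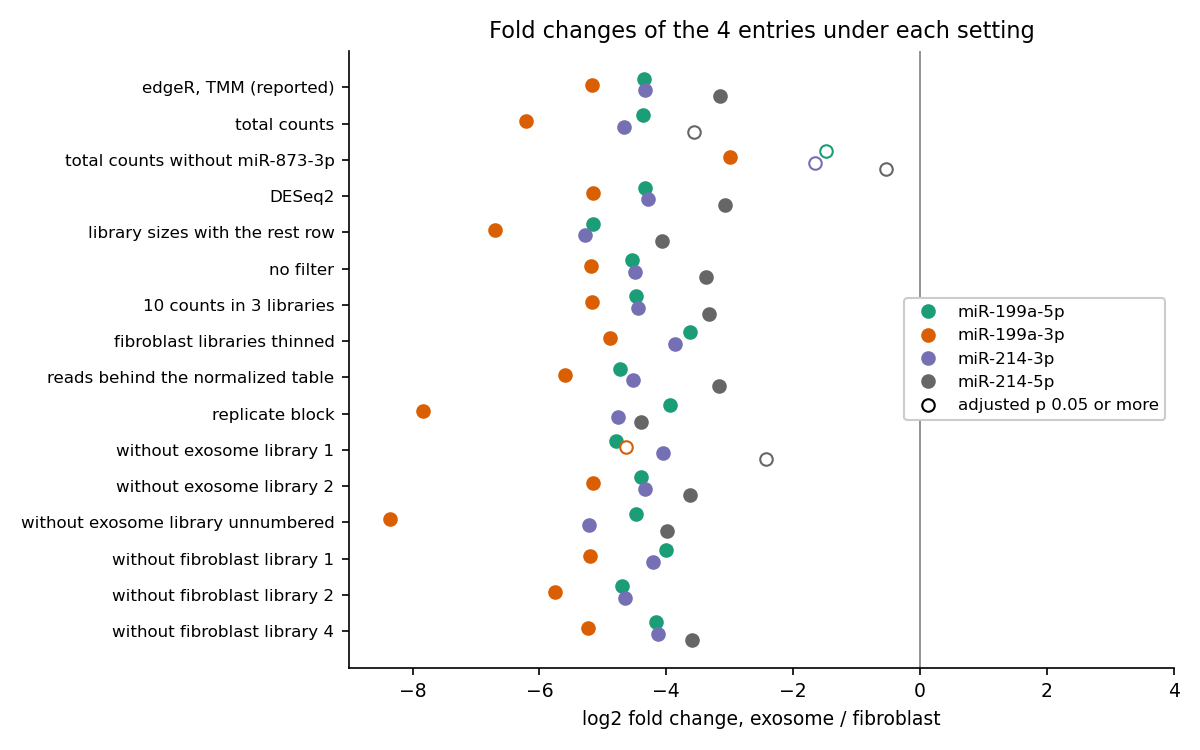
Log2 fold change, exosome over fibroblast, of the 4 entries (colours) under each scaling, filter, count table and left-out library; open circles have an adjusted p of 0.05 or more. All values lie below 0, and those nearest to 0 come from library sizes without miR-873-3p, where miR-214-5p is at -0.54.

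The authors' deposited table gives the same direction. In the authors' deposited table the fibroblast over exosome ratio of mean normalized counts was 34.8 for miR-199a-3p (log2 5.12, adjusted p = 0.00020), 23.1 for miR-199a-5p (log2 4.53, adjusted p = 0.025) and 16.8 for miR-214-3p (log2 4.07, adjusted p = 0.0049). In that authors' deposited table miR-214-5p was 5.84-fold higher in fibroblasts and did not pass (log2 2.55, adjusted p = 0.84). At the same threshold 7.28% of the 728 miRNAs in the authors' deposited table were lower in exosomes. These libraries are the ones used above, so the table is not separate evidence.

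The third question was whether the arms of a hairpin kept their proportion. In fibroblasts the 5p arm made up 13.7%, 9.98% and 12.5% of the miR-199a counts of libraries 1, 2 and 4. In exosome libraries 1 and 2 it made up 76.9% (95% Clopper-Pearson interval 60.7 to 88.9, 39 counts) and 55.0% (31.5 to 76.9, 20 counts), and in the unnumbered library 8.24% (3.38 to 16.2, 85 counts). Exosome libraries 1 and 2 thus lay above the fibroblast range and the unnumbered library did not. The fold changes of the arms differed by 0.82 (5p minus 3p, log2), which did not pass over all libraries (edgeR's diffSpliceDGE on 247 hairpins, Benjamini-Hochberg adjusted p = 0.47); 33.6% of these hairpins passed. Without the unnumbered library the difference was 3.89 (diffSpliceDGE adjusted p = 0.0058). Without exosome library 1 it was -0.15 (diffSpliceDGE adjusted p = 0.94), so the result depended on which exosome library was left out. In the reads behind the deposited normalized table, miR-199a-5p had 23 rather than 30 counts in exosome library 1 and 10 rather than 11 in library 2, and the 5p shares were 71.9% and 52.6%.

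For the miR-214 hairpin the 5p arm made up 9.57%, 10.7% and 1.41% of fibroblast counts in libraries 1, 2 and 4. The exosome libraries held only 4, 4 and 6 counts of both arms, and their intervals, such as 0.631% to 80.6% in library 2, cover the fibroblast range. The difference between arms was 1.17 (log2) and did not pass (edgeR's diffSpliceDGE, adjusted p = 0.54). The miR-143/145 cluster, another pair of mesenchymal hairpins made from 1 transcript, was compared in the same test. In exosome libraries 1, 2 and unnumbered miR-143-5p had only 3, 5 and 7 counts, or 16.7%, 6.49% and 1.07% of the miR-143 counts. The arms of miR-143 differed by 4.87 (edgeR's diffSpliceDGE, adjusted p = 2.2e-06), with miR-143-3p at log2 -5.75 and miR-143-5p at -0.88, while those of miR-145, by -0.35, did not pass (adjusted p = 0.81). Whether the miR-143 and miR-199a hairpins differ in this was not tested.

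**Figure D4:**
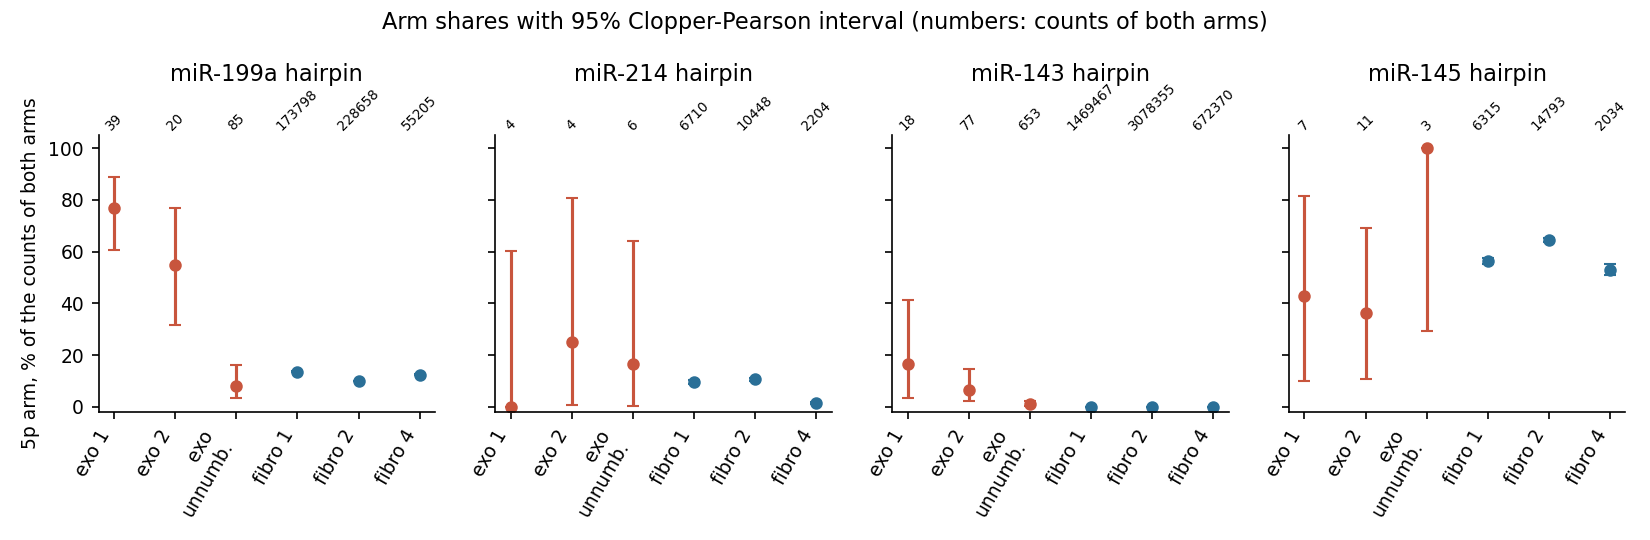
Share of the 5p arm in the counts of both arms (percent) for the miR-199a, miR-214, miR-143 and miR-145 hairpins in each library, with 95% Clopper-Pearson intervals and the counts of both arms above. For miR-199a, exosome libraries 1 and 2 are at 76.9% and 55.0%, and the unnumbered exosome library, at 8.24%, is close to the fibroblast libraries.

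Ratios between miRNAs of a library need no scaling, and 5 were compared (log2 ratio with 0.5 added to each count, exact two-sided permutation test of 3 against 3 libraries, whose smallest p is 0.1). The ratio of miR-214-3p to miR-199a-3p was -4.63, -4.46 and -4.47 in fibroblast libraries 1, 2 and 4 and -1.08, -1.44 and -3.84 in exosome libraries 1, 2 and unnumbered. All exosome values were higher, by 2.40 on average (exact permutation p = 0.1, Benjamini-Hochberg adjusted over the 5 ratios 0.25). The exosome values rest on 3 to 5 counts of miR-214-3p, and without the unnumbered or the first exosome library the difference was 3.26 or 1.88. The ratio of miR-199a-5p to miR-199a-3p was higher by 2.41 on average but overlapped (exact permutation p = 0.4, adjusted 0.40). It was 3.86 without the unnumbered library and 1.33 without exosome library 1. The ratio of miR-214-5p to miR-214-3p was higher by 2.05 and overlapped (exact permutation p = 0.2, adjusted 0.33), with 1.06 without fibroblast library 4. In exosome libraries 1, 2 and unnumbered it rests on 0, 1 and 1 counts of miR-214-5p, so it depends on the amount added. With 1 instead of 0.5 added to each count the difference was 2.49 (exact permutation p = 0.1).

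Against other abundant mesenchymal miRNAs, miR-199a-3p was compared with miR-143-3p, known from smooth muscle, and miR-21-5p, widely studied in fibrosis. The log2 ratio to miR-143-3p was -3.29, -3.90 and -3.80 in fibroblasts and -0.71, -2.93 and -3.04 in exosomes. The exosome values were higher by 1.44 on average with no overlap (exact permutation p = 0.1, adjusted 0.25), and by 0.68 without exosome library 1. The log2 ratio to miR-21-5p was -1.80, -2.58 and -2.10 in fibroblasts and -3.01, -2.65 and -1.86 in exosomes, which overlapped (difference -0.35, exact permutation p = 0.4, adjusted 0.40; -0.67 to -0.09 with 1 library left out). None of the 5 ratios could pass a threshold of 0.05 with 3 libraries a group. In the unnumbered exosome library miR-143-3p had 646 counts against 15 and 72 in libraries 1 and 2, and miR-21-5p 285 against 76 and 59. These abundant miRNAs were thus highest in the library in which miR-199a-3p was highest; the part of that library's makeup in the result was not tested.

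**Figure D5:**
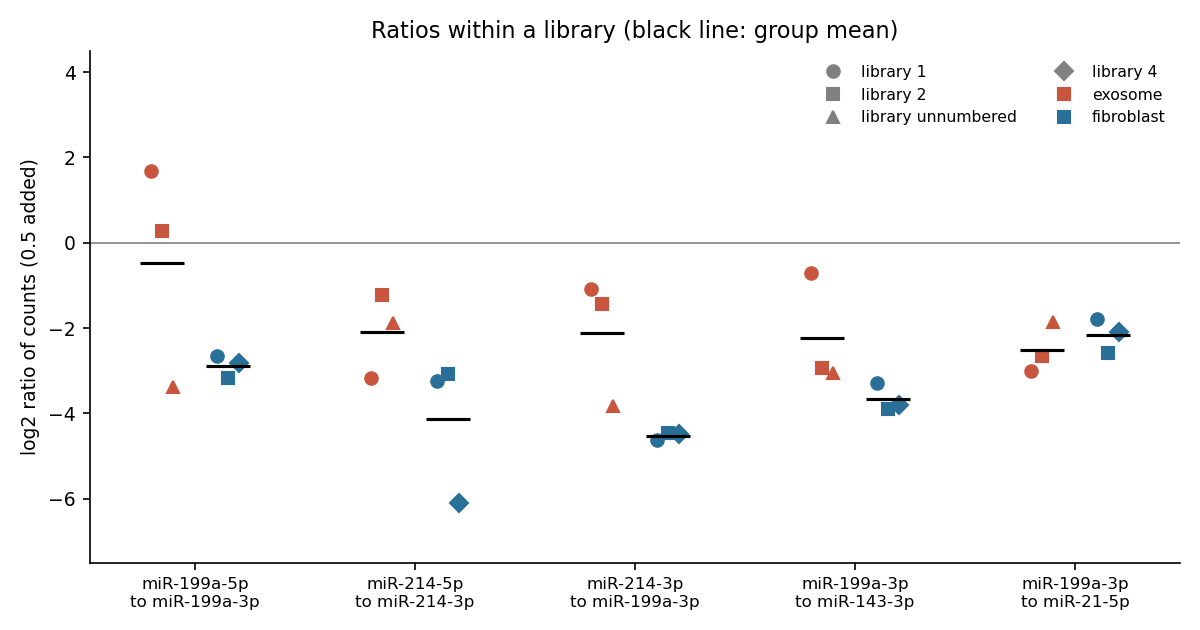
Log2 ratio of counts (0.5 added) for 5 pairs of miRNAs in each exosome (red) and fibroblast (blue) library; symbols mark libraries and black lines group means. For miR-214-3p to miR-199a-3p the fibroblast libraries sit between -4.63 and -4.46 and every exosome library lies above them.

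The miRNAs whose pattern over the 6 libraries was most like the mean of the 4 entries were sought among 392 with a mean fibroblast level of 50 CPM or more, by the root mean square difference of centred log2 CPM. The nearest was miR-29a-3p, known to repress collagen genes, at 0.13. miR-125a-5p (0.27), miR-181b-5p (0.27), miR-130a-3p (0.28) and miR-26a-5p (0.35) followed. The 4 entries themselves were farther from their own mean, at 0.46 for miR-214-3p, 1.07 for miR-199a-5p, 1.22 for miR-199a-3p and 1.44 for miR-214-5p, so the mean hides differences among them. The measure is a description; group and depth are shared by all points. The 5 sequences are shown to compare their seeds (capitals) with those of the cluster, with which none is shared.
miR-29a-3p: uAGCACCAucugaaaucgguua
miR-125a-5p: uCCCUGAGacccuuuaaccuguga
miR-181b-5p: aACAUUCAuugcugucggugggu
miR-130a-3p: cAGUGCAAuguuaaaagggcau
miR-26a-5p: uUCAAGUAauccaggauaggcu
Their log2 fold changes ran from -4.54 (miR-26a-5p) to -4.24 (miR-125a-5p). miR-29a-3p had 4, 6 and 9 counts in exosome libraries 1, 2 and unnumbered and 17152, 20783 and 2692 in fibroblast libraries 1, 2 and 4. By this measure miR-145-5p was at place 20 and its partner arm miR-145-3p at 331 of 392, miR-143-5p at 109 and miR-143-3p at 140, and miR-21-5p at 44. The places of the miR-145 arms rest on few reads. In exosome libraries 1, 2 and unnumbered miR-145-5p had 3, 4 and 3 counts and miR-145-3p 4, 7 and 0.

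Of the 31 other mesenchymal entries 17 passed as lower in exosomes, 2 passed as higher and 12 did not pass. Their median log2 fold change was -2.96, and that of all 698 tested miRNAs was -0.15 (18.6% lower, 11.3% higher). Among the 100 most abundant fibroblast miRNAs, 76 were called lower and the median was -3.42. The part of abundance in the calls of the mesenchymal list was not tested. The list's entries are described next. The most abundant mesenchymal entries in fibroblasts were miR-143-3p (log2 -5.75, SE 2.26, edgeR adjusted p = 0.038), miR-22-3p (-5.11, SE 2.04, 0.041), miR-21-5p (-5.23, SE 1.86, 0.020) and miR-27b-3p (-4.04, SE 1.33, 0.011). miR-199a-3p, at -5.17, lay among them. The 2 higher ones, miR-218a-1-3p (1.69) and miR-24-1-5p (1.79), are named because of their values.

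Short motifs that have been linked to vesicle loading in other cells were looked up in the mature sequences on the strand of the miRNA. GGAG occurred in 7.79%, CCCU in 9.47% and GGCU in 10.4% of the 655 sequences, and in 0 of the 4 entries of the cluster. This says only that these letters are not in the RefSeq sequences of the entries.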

How the data were processed

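Whole-number read counts, 1 row per mature miRNA, were deposited by the authors. A second deposited table held normalized signal, which its values show to be counts divided by 1 factor per library. The authors' comparison, per the file headers, lists a fold change (a ratio of means) with its log2, and a p-value before and after adjustment. The submitters' processing notes name CASAVA 1.8.2, cutadapt 1.2.1, DESeq and build rn5. The aligner, the counting rule and the miRNA release used were not given in the sources used here. Columns were matched to samples by name, and 1 exosome column carried no number.

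The main test, on raw counts, used edgeR 4.0.16 (R 4.3.3): TMM, filterByExpr (minimum count 10, minimum total 15; equal to 7.81 CPM), which removed 30 of 728 miRNAs, and the two-sided quasi-likelihood test on group. Standard errors were derived from the log2 fold change and the F statistic. Arms were tested with diffSpliceDGE. DESeq2 1.42.0 was an alternative. Whole reads were recovered from the normalized table (100% of values within 0.1 of a whole read) and came to 99.3% to 99.8% of raw counts. The row of that table named rest, which names no miRNA and held 63.1% to 84.4% of reads, stayed out of library sizes and tests except in the setting named for it. Fibroblast libraries were thinned to 117449 counts in 1 alternative. Folds were predicted with RNAfold (ViennaRNA 2.7.2). The edgeR and diffSpliceDGE steps were also run on simulated counts with a common spread for all miRNAs, and no result here rests on that run.

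Depth was 113129 to 120224 counts per exosome library and 2439559 to 12508651 per fibroblast library, so that exosome counts limit the precision. Libraries of 1 group differed by more than sampling noise in every pair (chi-square over its degrees of freedom 4.10 to 621). The named miRNAs were the 4 entries, 5 comparison miRNAs (both arms of miR-143 and miR-145, and miR-21-5p), miR-873-3p, miRNAs that share a seed, the 5 nearest in profile and the 4 most abundant mesenchymal entries. Members, lists and comparison miRNAs were chosen with earlier results of these data known.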

Additional observations from a re-analysis of the deposited data

How the results depend on the processing

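Each log2 fold change of the 4 entries kept its direction under every setting run. With total counts as library size miR-214-5p was not called (-3.56, adjusted p = 0.063) and 43 miRNAs were higher. With the counts outside miR-873-3p, miR-199a-5p (-1.48), miR-214-3p (-1.65) and miR-214-5p (-0.54) were not called, and the counts of calls became 36 lower and 377 higher. Library sizes with the reads of the rest row gave 196 lower and 37 higher. With all counts as denominator the exosome share of the 4 entries was 0.0445%. Leaving out each library in turn gave -8.36 to -4.63 for miR-199a-3p, -3.98 to -2.42 for miR-214-5p, 86 to 139 miRNAs lower and 46 to 78 higher, and -0.15 to 3.89 for the arm difference of miR-199a; the 86 came without exosome library 1, the 46 without exosome library 2, the 139 and the -3.98 without the unnumbered library and the 78 without fibroblast library 4. The cause was not tested. Without fibroblast library 1 or 2 and with thinning, miR-214-5p did not pass the count filter, and 402, 359 and 325 miRNAs were tested instead of 698.

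The r of deviations from group means between same-numbered libraries was -0.24 for number 1 and 0.22 for number 2 over 378 miRNAs. With so few libraries a group and few exosome counts, this check cannot exclude pairing. The labels state no pairing, so the numbers were not taken to pair samples. The unnumbered exosome library and fibroblast library 4 each stand alone in their block, so the blocked contrast rests on the pairs numbered 1 and 2. With the replicate number as a block, the arm difference of miR-199a was 3.90 (diffSpliceDGE adjusted p = 0.00040), 138 miRNAs were lower and 96 higher, and the 4 entries stayed called. The unnumbered library has no weight in this contrast, and without that library the unblocked arm difference was 3.89, so the 3.90 is not separate evidence. With so few libraries the blocked p-values lean on a spread estimated across miRNAs. Depth limits miR-214-5p most, at 2 exosome counts, and miR-214-3p, at 12.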
